A study of Homo sapiens with 6 samples.

Results

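ICAM1, IL15, IL18 and IL32 encode an adhesion molecule and 3 cytokines through which epithelial tumour cells engage T and NK cells. They were taken by name and are 4 of the 770 genes counted. The names follow function, but the set was selected on measured values of these same 6 libraries, with the response to interferon-gamma in the empty-vector cells and the difference between the vectors already known. The members' values in those comparisons are therefore a description and carry no test. The response in the other vector follows from these, so for the members it carries no test either.

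ICAM1 (CD54) is an immunoglobulin-family surface protein that binds the leukocyte integrins LFA-1 and Mac-1 and holds T and NK cells to their targets. IL15 is presented on its own receptor chain to neighbouring lymphocytes and sustains NK cells and memory CD8+ T cells. IL18 is an IL-1 family cytokine made as an inactive precursor that caspase-1 cleaves, and it drives interferon-gamma production by T and NK cells. IL32 is a pro-inflammatory cytokine of NK cells, T cells and epithelium. Interferon-gamma acts through JAK kinases and STAT factors on GAS elements, and NF-kB acts on kappaB elements of many inflammatory genes.

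RNA came from cultures that the labels call PC3, a prostate cancer line grown from a metastasis in bone, and was measured with the PanCancer IO 360 panel on the nCounter, which counts barcodes on single RNA molecules without amplification. Cells carried an empty vector (EV) or an expression vector for BTN1A1, a butyrophilin, and each kind was untreated, given 100 ng/ml interferon-gamma for 24 h, or given it for 48 h. All 6 groups grew in the same medium with serum, the untreated cultures were titled 48 h, and each group was 1 library. A 24 h comparison with the untreated library thus also holds a difference in culture time. The sources used here do not say whether either line was 1 clone. In such bulk RNA, fewer cells expressing a gene and less RNA per cell cannot be told apart. Total counts were 221633 to 441611, and no probe measured BTN1A1. Counts were scaled by 20 housekeeping genes, and intervals are exact 95% intervals for counting error only, which leave out any spread between cultures.

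The labelled cell line was checked against its markers. EPCAM, an epithelial adhesion molecule, stood at 210 to 242 counts in the EV libraries and 29 to 59 in those labelled BTN1A1, and the epithelial cadherin CDH1 at 145 to 197 and 26 to 31. STAT3, a gene PC3 cells are known to lack, stood at 10 to 20 counts in EV and 383 to 593 in the libraries labelled BTN1A1. The neural adhesion molecule NCAM1 stood at 12 to 16 and 135 to 249. The vector and the origin of the cultures therefore cannot be told apart, and the second set is called the libraries labelled BTN1A1 throughout. The 61 T, NK, B and myeloid markers had a median of 18 to 25 counts and a 90th percentile of 39 to 56 in the 6 libraries, and 0 of them were at 0. Summed counts of the 34 T and NK markers were 674 to 886 in EV and 843 to 933 in the libraries labelled BTN1A1. NCAM1 is 1 of these markers, and without it the sums were 658 to 874 and 684 to 716. Those of the 27 B and myeloid markers were 727 to 1006 and 605 to 664. Those of 9 endothelial and fibroblast markers, outside that background, were 1434 to 2200 and 765 to 843. Most of these sums was CDH2 and COL6A3. CDH2 stood at 712 to 1005 counts in EV and 557 to 679 in the libraries labelled BTN1A1, and COL6A3 at 341 to 871 and 12 to 22. The leukocyte markers serve as the background below, since no control probes were used.

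The genes lie on 4 chromosomes of assembly GRCh38.p14: ICAM1 at chr19:10271120-10286615, IL15 at chr4:141636583-141733987, IL18 at chr11:112143260-112164094 and IL32 at chr16:3065403-3069530. RefSeq sequence upstream of the start site is shown for ICAM1 and for the first start of IL32. The reference used held no such sequence for IL15 or IL18, so neither was searched for motifs. Each run is the 250 bases before the start on the plus strand, at chr19:10270870-10271119 and chr16:3065153-3065402, and capitals mark matches to the motifs searched.
ICAM1: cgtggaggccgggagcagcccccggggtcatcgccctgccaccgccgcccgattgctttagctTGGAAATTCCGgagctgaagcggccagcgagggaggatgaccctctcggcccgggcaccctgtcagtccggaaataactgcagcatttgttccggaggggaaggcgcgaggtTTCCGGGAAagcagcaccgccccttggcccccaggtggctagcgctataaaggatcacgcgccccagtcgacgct
IL32: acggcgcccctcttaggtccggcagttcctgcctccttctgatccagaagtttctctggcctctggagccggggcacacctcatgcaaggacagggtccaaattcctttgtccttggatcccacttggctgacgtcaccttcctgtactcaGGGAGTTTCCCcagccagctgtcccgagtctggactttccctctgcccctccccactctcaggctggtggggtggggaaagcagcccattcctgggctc

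Both strands were searched for the GAS letters TTCNNNGAA, the ISRE core GAAANNGAAA, the classical kappaB consensus and its RelA-preferring variant. ICAM1 held 1 GAS match, 75 to 67 bases before the start, and the RelA-preferring variant 187 to 177 bases before it, read on both strands in overlapping positions. The IL32 window held the classical kappaB consensus 99 to 89 bases before the start, again in overlapping positions on both strands, and no GAS or ISRE letters. The window before a second RefSeq start of IL32, at chr16:3065534-3065783, held none of the 4 motifs. Of 35116 windows of this length, 6.57% held GAS, 3.02% the ISRE core, 5.21% the classical kappaB consensus and 8.22% its variant. A match is a description of letters and not a site shown to be bound.

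In the EV cells, interferon-gamma went with more ICAM1, IL15 and IL32 RNA at both times, while IL18 was already abundant. ICAM1 stood at 130 counts untreated (109 to 154), 1524 at 24 h (1448 to 1603) and 1527 at 48 h (1451 to 1606). Both treated libraries lay far above the untreated one, and after scaling ICAM1 was 10.5-fold higher at 24 h (8.77 to 12.7) and 13.0-fold at 48 h (10.8 to 15.6). The 24 h and 48 h counts were nearly equal, and the scaled values, 1415 and 1748, were 1.24-fold apart (1.15 to 1.33).

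IL32 had the widest span. It stood at 94 counts untreated (76.0 to 115), 2977 at 24 h (2871 to 3086) and 799 at 48 h (745 to 856). It was 28.4-fold higher than untreated at 24 h (23.1 to 35.2) and 9.38-fold at 48 h (7.57 to 11.7), so that its peak was the earlier library. From 24 h to 48 h IL32 was 3.02-fold lower (2.79 to 3.27), the lowest of 631 genes in that comparison, in which 7 genes (1.11%) were at least 2-fold lower. Its log2 difference there was -1.60, and -1.73 to -1.79 under 3 other scalings. This step rests on 1 library at each time.

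IL15 was the least abundant of the 3 in counts. It stood at 52 untreated (38.8 to 68.2), within the background, where 8 of 61 markers were as high, and at 235 (206 to 267) and 226 (197 to 257) at 24 h and 48 h. Scaled values were 4.05-fold (2.98 to 5.57) and 4.80-fold (3.53 to 6.62) higher than untreated, and the 2 treated libraries differed by 1.19-fold with an interval that included no difference (0.983 to 1.43).

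IL18 followed another course in EV. It stood at 797 counts untreated (743 to 854), 843 at 24 h (787 to 902) and 1258 at 48 h (1189 to 1330). The 24 h library was at 0.858 to 1.04 of the untreated level after scaling, and the 48 h library was 1.74-fold higher (1.59 to 1.91), short of 2-fold. Scaling by total counts in place of housekeeping genes turned the 24 h and 48 h log2 differences from -0.08 and 0.80 to -0.54 and 0.16, so no direction is given for IL18.

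**Figure D1:**
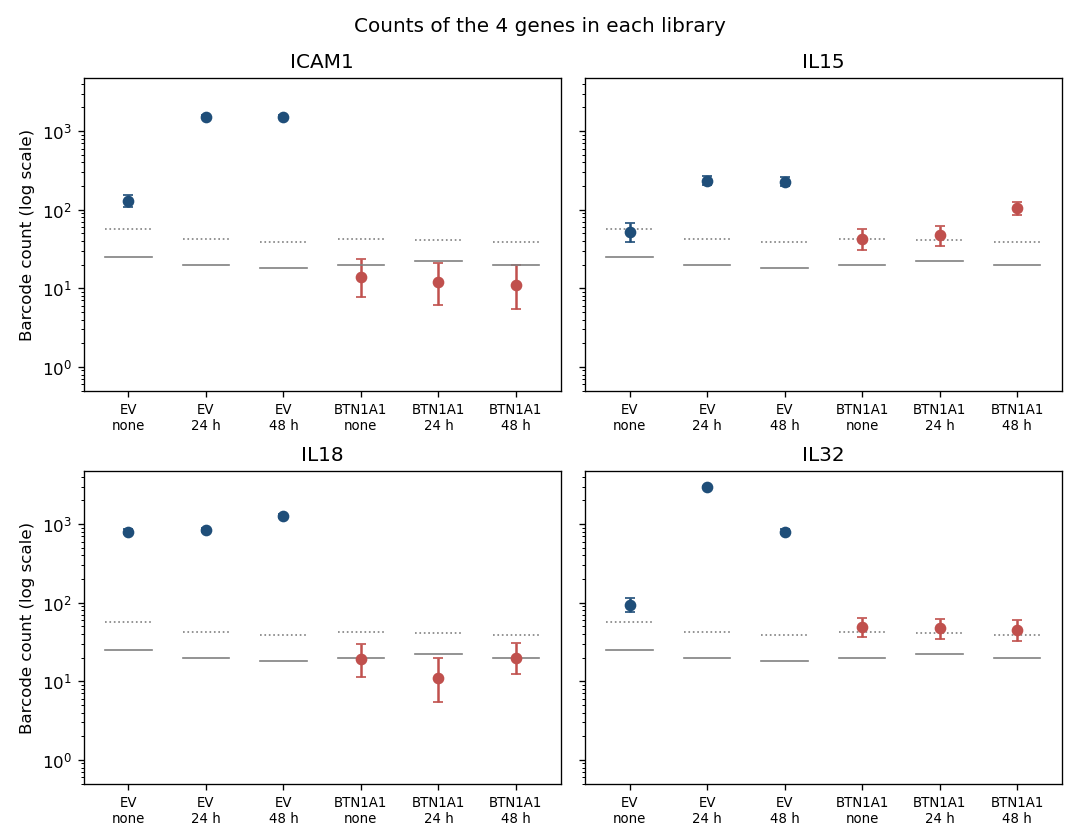
Barcode counts (log axis) of ICAM1, IL15, IL18 and IL32 in the 6 libraries; EV in blue, the libraries labelled BTN1A1 in red, none for untreated. Bars are exact 95% counting intervals, solid grey lines the median and dotted lines the 90th percentile of 61 leukocyte markers; ICAM1 and IL18 lie at or below the median line in the 3 libraries labelled BTN1A1.

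Read against the whole panel, 3 of the 4 genes were at least 2-fold higher in EV at 24 h, where 12.4% of 662 genes were, and the same 3 at 48 h, where 14.7% of 673 were. The rank of the increase at 24 h was 5 for IL32, 19 for ICAM1, 50 for IL15 and 307 for IL18. At 48 h these ranks were 30, 19, 55 and 114. The median log2 difference of all genes was -0.12 at 24 h and -0.06 at 48 h. In the fit that took both times as treated samples, the log2 difference was 4.24 for IL32 (SE 0.61), 3.55 for ICAM1 (SE 0.58), 2.14 for IL15 (SE 0.59) and 0.43 for IL18 (SE 0.48). That fit, edgeR's quasi-likelihood test, called 69 of 669 genes higher (10.3%) and 7 lower, with ICAM1, IL15 and IL32 among them. The set was chosen knowing this, and nothing is read from it. The call for IL15 ended without the 24 h EV library (log2 difference 2.26), without the 48 h EV library (2.01) and under TMM scaling (2.25). Scaling by total counts gave 63 genes higher and 98 lower, and equal medians 60 and 60, with ICAM1 at 2.99 and 3.23 and IL32 at 3.73 and 3.98.

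In the libraries labelled BTN1A1, ICAM1 and IL18 were at the background whether or not interferon-gamma was given, IL32 was low in every library, and IL15 alone of the 4 was higher in a treated library. ICAM1 stood at 14 counts untreated (7.65 to 23.5), 12 at 24 h (6.20 to 21.0) and 11 at 48 h (5.49 to 19.7), with 44 to 55 of the 61 leukocyte markers as high or higher. IL18 stood at 19 (11.4 to 29.7), 11 (5.49 to 19.7) and 20 counts (12.2 to 30.9), with 32 to 53 markers as high. For ICAM1 no change could be measured at these counts, and no fold is given. The same holds for IL18 at 24 h.

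IL32 stood at 49 counts untreated (36.3 to 64.8), 47 at 24 h (34.5 to 62.5) and 45 at 48 h (32.8 to 60.2). The 3 values overlapped, at the upper edge of the background, where 2 or 3 markers were as high. After scaling, the 48 h library was at 0.824 to 1.93 of the untreated level.

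IL15 stood at 42 counts untreated (30.3 to 56.8), 47 at 24 h (34.5 to 62.5) and 104 at 48 h (85.0 to 126). The untreated and 24 h values overlapped, with 7 and 3 markers as high, and the 48 h value stood apart, with 1 marker as high. After scaling IL15 was 3.41-fold higher at 48 h than untreated (2.36 to 5.00) and 3.19-fold higher than at 24 h (2.24 to 4.60). It ranked 11 of 638 genes for the first and 4 of 641 for the second, against 4.86% and 7.02% of genes at least 2-fold higher, and 3.05% at 24 h, where 0 of the 4 genes were. The median of the leukocyte markers in counts was 20 untreated, 22 at 24 h and 20 at 48 h. After scaling it was 17.98, 18.9 and 24.7, so the scaled background, though not the counted one, was also highest in the 48 h library. The part of that shift in the IL15 value was not tested. The log2 difference of IL15 at 48 h from untreated was 1.77, and 1.34 to 1.70 under 3 other scalings. From 24 h to 48 h it was 1.67, against a median of 0.38 over all genes. Under the same other scalings it was 1.05 to 1.57, lowest with equal medians.

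**Figure D2:**
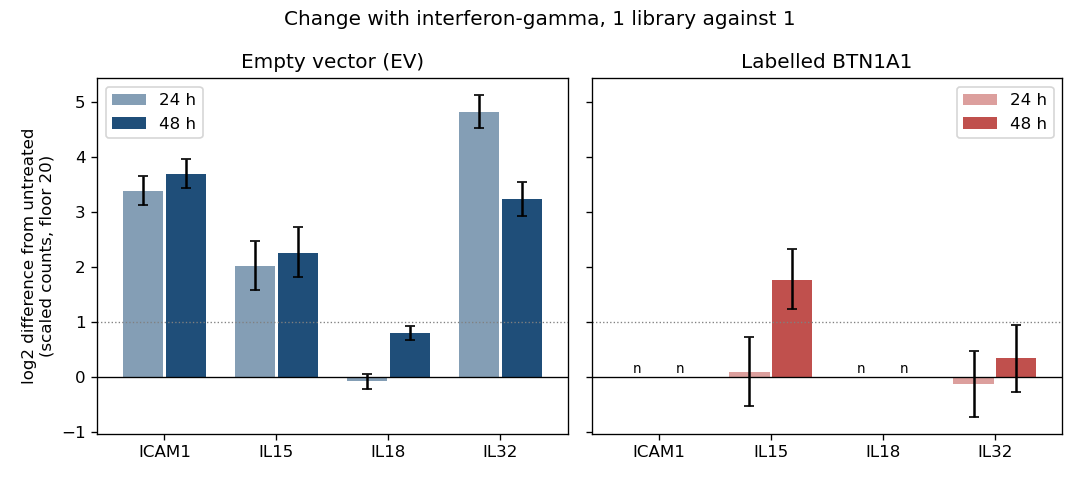
log2 difference of the scaled count from the untreated library of the same vector at 24 h and 48 h, with exact 95% counting intervals; n marks genes with a library under 20 scaled counts, for which no bar is drawn. The dotted line is 2-fold; IL15 at 48 h is the one bar above it among the libraries labelled BTN1A1.

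With both times as treated samples, the edgeR fit, adjusted by Benjamini-Hochberg over all tested genes, passed 0 of the 4 genes in the libraries labelled BTN1A1, where 1.05% of 669 genes were called higher. The log2 difference was 1.14 for IL15 (SE 0.58), 0.12 for IL32 (SE 0.53), -0.05 for IL18 (SE 0.60) and -0.09 for ICAM1 (SE 0.64). ICAM1 and IL18 were at the background in these libraries, so their values near 0 are not a measured absence of response. The values of all 4 genes follow from the EV response and the difference in response, both known when the set was chosen. They are a description and carry no test. Without the 24 h library labelled BTN1A1, IL15 stood at 1.76, and without the 48 h library at 0.10.

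The vectors were next compared within each condition, 1 library against 1 and with no test. Without interferon-gamma, IL18 was at least 41.3-fold lower in the library labelled BTN1A1 than in EV, and ICAM1 at least 6.74-fold lower, both with the lower value, under 20 scaled counts, set to 20. The counting intervals of the ratios as measured were 30.8 to 80.8 and 6.16 to 20.1, so counting error allows folds somewhat under those bounds. IL32 was 2.21-fold lower (1.55 to 3.19), and IL15 was at 0.455 to 1.07 of the EV level, an interval that includes no difference. Of 672 genes 27.8% were at least 2-fold lower in the same comparison, and IL18 ranked 8 among decreases. Between the untreated cultures the gap was widest for IL18. With values under 20 set to 20, the widest gap a gene could show was set by its untreated EV level. That level was 827 scaled counts for IL18, 135 for ICAM1, 97.5 for IL32 and 53.9 for IL15. The order of these gaps is therefore not read against the response to interferon-gamma.

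At 24 h of interferon-gamma all 4 genes were lower in the library labelled BTN1A1, where 32.4% of 627 genes were at least 2-fold lower. ICAM1 was at least 70.7-fold lower, IL32 68.5-fold (51.3 to 93.4), IL18 at least 39.1-fold and IL15 5.40-fold (3.94 to 7.56). The ratios of ICAM1 and IL18 as measured had intervals of 78.3 to 266 and 46.0 to 167. At 48 h all 4 were again lower, against 28% of 678 genes. ICAM1 was at least 87.4-fold lower with the same floor (71.6 to 258 as measured), IL18 58.2-fold (37.5 to 95.6), IL32 16.4-fold (12.2 to 22.7) and IL15 2.01-fold (1.59 to 2.56). ICAM1 and IL18 thus kept gaps of more than an order of magnitude at both times, and that of IL15 was smaller at 48 h than at 24 h. The summed endothelial and fibroblast markers, mostly CDH2 and COL6A3, were also lower in the libraries labelled BTN1A1. That sum does not show which cells were present, and its part in these gaps was not tested.

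Scaling bears on the smaller gaps. The median log2 difference over all genes was -0.49 untreated, -0.38 at 24 h and -0.06 at 48 h, and equal medians shifted the scale by 0.94, 1.34 and 0.92, less for genes at the floor. With it 174 genes were higher and 98 lower in the untreated comparison, against 76 and 187. The log2 difference of IL15 at 48 h went from -1.01 to -0.09, and to -0.26 with total counts. That of IL32 without treatment went from -1.15 to -0.21, and that of IL15 without treatment from -0.51 to 0.42. ICAM1 and IL18 stayed at least 2-fold lower under each of these scalings.

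The response itself, BTN1A1 minus EV, differed at 24 h by a log2 value of -4.95 for IL32 and -1.92 for IL15. At 48 h the values were -2.89 and -0.49, against a median of 0.03 and 0.21 over 669 genes. For ICAM1 and IL18 no such value is given, since libraries labelled BTN1A1 were under the floor. Fitted over both times, the difference was -4.12 for IL32 (SE 0.75), -3.64 for ICAM1 (SE 0.83), -0.9998 for IL15 (SE 0.78) and -0.47 for IL18 (SE 0.77). The fit called 28 genes (4.19%) with the larger response in EV, ICAM1 and IL32 among them, which the choice of the set already knew. TMM scaling and equal medians ended the call for IL32, at -4.45 and -3.99. For ICAM1 the difference is that between a response in EV and counts at the background, where no response could be measured. The IL18 difference likewise sets EV values against counts at the background.

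**Figure D3:**
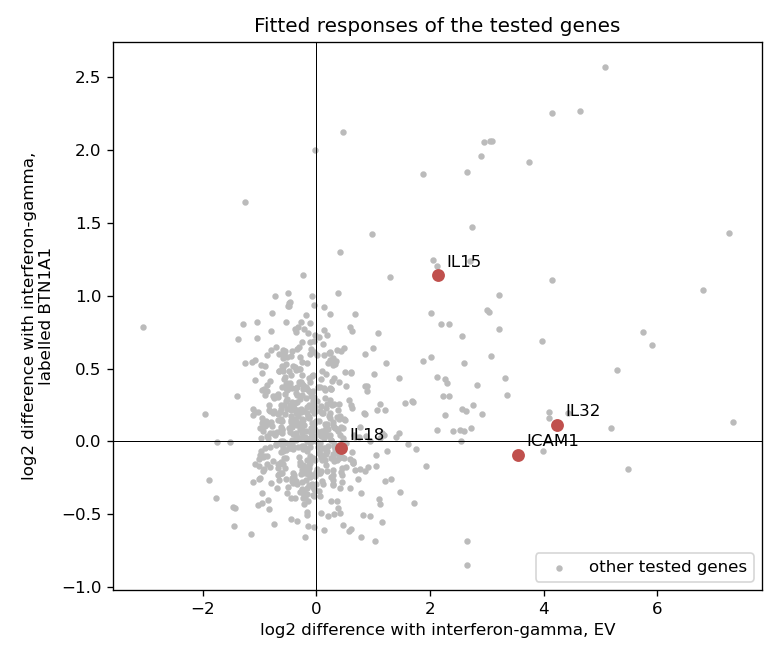
Fitted log2 difference with interferon-gamma, over both times, in EV (x axis) and in the libraries labelled BTN1A1 (y axis); each point is 1 of 669 tested genes. ICAM1 and IL32 lie far to the right near 0 on the y axis, IL15 is right of and above 0, and IL18 is near the centre.

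Order over the 6 libraries separated the genes further. For ICAM1 the 3 EV libraries came first, each apart from the next beyond counting error, and the 3 labelled BTN1A1 did not differ from one another. The step between EV at 48 h and at 24 h came from the scaling, since the counts were 1527 and 1524. Its log2 value was 0.30, and 0.11 to 0.17 under 3 other scalings. For IL18 the order was EV at 48 h, then EV untreated and EV at 24 h, which did not differ (ratio 0.957 to 1.16), then the 3 libraries labelled BTN1A1. For IL32 it was EV at 24 h, EV at 48 h, EV untreated and then the 3 others, with EV untreated 1.75-fold above the next (1.22 to 2.56). For IL15 alone a library labelled BTN1A1 stood among those of EV. Its 48 h library was below EV at 24 h by 1.70-fold (1.34 to 2.16) and above EV untreated by 2.38-fold (1.69 to 3.39). These orders are of housekeeping-scaled values. Ratios between a library of one vector and a library of the other in another condition were not computed under the other scalings. Those scalings moved the smaller gaps between the vectors given above, so the smaller steps for IL15 and IL32 may depend on the scaling.

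Genes with the nearest pattern were found by the root mean square difference between centred log2 values over the 6 libraries, which share the vector contrast and the scaling. Nearest to ICAM1 were the antiviral 2'-5' oligoadenylate synthetases OAS2 (0.32) and OAS1 (0.50) and the immunoproteasome subunit PSMB8 (0.57), where the median of all genes was 2.76. Nearest to IL15 were the non-classical class I genes HLA-E (0.33) and HLA-F (0.35) and the ISG15-activating enzyme UBA7 (0.43), with a median of 1.15. HLA-E stood at 535, 3352 and 3345 counts in EV whereas those labelled BTN1A1 had 363, 795 and 1356. Nearest to IL32 were the protease CTSS (0.39), the chemokine CXCL10 (0.66) and the immunoproteasome subunit PSMB10 (0.74), with a median of 2.32. CTSS, like IL32, was highest in EV at 24 h, at 1366 counts against 46 untreated and 700 at 48 h.

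Near to IL18 were the cadherin CDH11 (0.46) and the matrix protein THBS1 (0.51), with a median of 2.66. THBS1 stood at 1614, 1947 and 1481 counts in EV whereas those labelled BTN1A1 had 19, 10 and 20. Both, like IL18, were high in EV with or without treatment. The genes nearest to the other members were, like those members, highest in the treated EV libraries. Genes picked by likeness repeat the member's own pattern, so this adds no support to it. Between the members, ICAM1 and IL32 were the nearest pair (0.90), with 14 other genes nearer to ICAM1 and 12 nearer to IL32, and IL15 and IL18 the farthest (2.23).

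**Figure D4:**
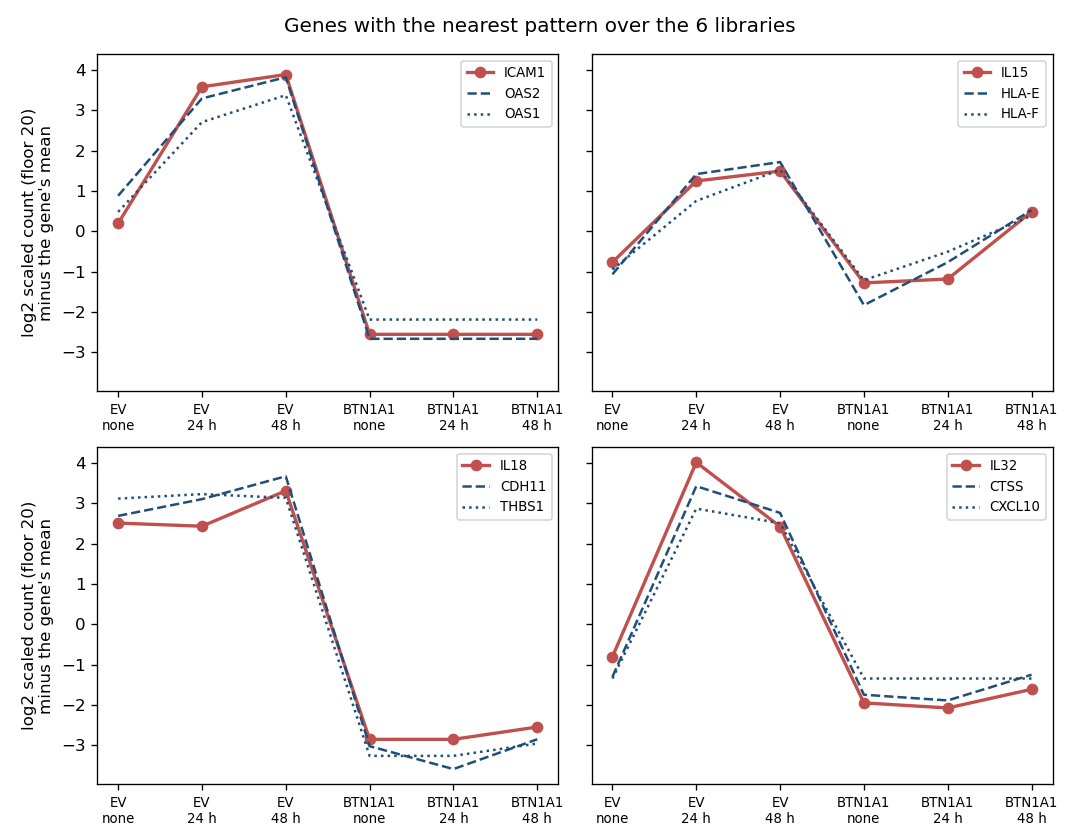
log2 scaled counts (floor of 20) minus each gene's own mean in the 6 libraries, for each of the 4 genes (red) and the 2 genes with the nearest pattern (blue). IL18 and its neighbours are high in all 3 EV libraries, and the 48 h library labelled BTN1A1 is raised for IL15, HLA-E and HLA-F.

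Partners of these genes came from gene lists that leave out the members, and were taken from the same edgeR fit over all genes. The lists were chosen with earlier results of these data known, so their calls are a description and not independent support. The error term of that fit is 24 h against 48 h within a vector, not a spread between replicate cultures. Over all 669 genes 10.3% were called higher in EV and the median log2 difference was -0.11, against which each count is to be read. Of 18 measured leukocyte adhesion genes 14 were tested and 0 passed in any of the 3 contrasts. In EV their median log2 difference was -0.31. ICAM3, another ligand of LFA-1, stood at 653, 562 and 393 counts in EV (-0.48), the endothelial ligand VCAM1 at 28, 19 and 16, and CD58, the ligand of CD2, at 56, 43 and 58 (-0.14). The integrin chains that bind ICAM1 on leukocytes were at 23 to 37 counts in EV for ITGAL and ITGAM and at 42 to 70 for ITGB2.

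Of 9 measured genes of the IL15 axis 5 were tested, and IL7R, the receptor of the related cytokine IL7, rose in EV by 1.87 (SE 0.53, edgeR adjusted p = 0.00439). The receptor chains that bind IL15 on lymphocytes were at the background, IL2RB at 12 to 20 and IL2RG at 7 to 13 counts in EV. Of 10 measured genes of the IL18 and inflammasome list 6 were tested and 2 rose in EV, with a list median of 0.39. CASP1, the protease that matures IL18, stood at 32, 210 and 242 counts in EV and rose by 2.82 (SE 0.65, edgeR adjusted p = 0.000207). It stood at 16, 16 and 20 in the libraries labelled BTN1A1. NLRC5, a regulator of class I genes, rose by 1.88 (SE 0.63). The IL18 receptor chain IL18R1 stood at 41, 57 and 45 counts in EV and the relative IL1B at 78, 62 and 90, neither of which passed. IL18 and CASP1 were not tested against each other.

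Of 32 measured NF-kB and inflammatory genes 29 were tested and 0 passed in any of the 3 contrasts, with a median log2 difference in EV of 0.05. The inhibitor NFKBIA stood at 953, 2481 and 1318 counts in EV (0.95), the subunit RELA at 345, 537 and 538 (0.64), and the neutrophil chemokine CXCL8 at 175, 249 and 193 (0.32). Of 26 measured ligands for T and NK cell receptors 23 were tested, and 4 rose in EV, with a list median of -0.03. They were HLA-E, a ligand of NKG2 receptors (2.64), the death ligand TNFSF10 (2.57), PDCD1LG2 (2.26) and CD274 (2.13). The stress ligands of NKG2D, MICA and MICB, stood at -0.51 and 0.84 and did not pass.

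Of 15 measured genes of interferon-gamma receptor signalling, all tested, 4 rose in EV, IRF1 by 5.08, SOCS1 by 2.52, IRF9 by 2.20 and STAT2 by 1.69, with a list median of 0.26. In the libraries labelled BTN1A1, IRF1 rose by 2.57 (SE 0.59, edgeR adjusted p = 0.00913). That call was lost with TMM, equal medians and a minimum of 50, which each left 0 genes called in those libraries. The difference between the vectors passed for IRF1 (-2.51) and for the related IRF8 (2.90, edgeR adjusted p = 0.0462). IRF8 stood at 18, 6 and 9 counts in EV, within the background, where no response could be measured. It stood at 58, 167 and 149 in the libraries labelled BTN1A1. Both receptor chains were counted in those libraries, IFNGR1 at 601 to 870 and IFNGR2 at 353 to 480. Of 7 tested epithelial and PC3 identity genes the laminin chain LAMB3 rose in EV by 1.94. Of the tested markers of T and NK cells (21), of B and myeloid cells (23) and of endothelium and fibroblasts (9), 0 passed in any contrast. Over all 669 genes edgeR gave 113 at an unadjusted p under 0.05 in EV, 17 in the libraries labelled BTN1A1 and 78 for the difference.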

How the data were processed

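The deposited values are barcode counts per probe, whole numbers with differing column totals, for 770 probes in 6 libraries. The nCounter panel is named in the labels, and the authors' own processing is not stated in the sources used. Each library was scaled by its geometric mean over 20 housekeeping genes (1 gene name of that list was corrected to the panel's after the counts were seen), and 669 genes with at least 20 scaled counts in 2 libraries were tested. Testing used the quasi-likelihood method of edgeR 4.0.16 in R 4.3.3, with Benjamini-Hochberg adjustment at 0.05. Terms were vector, treatment and the product of both, with 24 h and 48 h as treated samples and 2 residual degrees of freedom (common dispersion 0.078). Each untreated arm is 1 library, so the only residual is 24 h against 48 h within each vector. P-values therefore measure against a difference in time and not a spread between replicate cultures. They rest mostly on spread shared across genes. An SE is the absolute log2 difference over the square root of F.

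Pairs of libraries were compared without a test, over genes that reached 20 in either one. Lower values were set to 20, 2-fold was the threshold, and counting intervals came from the exact binomial interval of the 2 counts. The members and gene lists were chosen with earlier results of these data known. Genes named are the members, up to 4 passing genes per list and contrast, and the 3 nearest in pattern per member, of which 1 is not reported here; other genes given as values were picked from the lists after their values were seen. Of the probe names 756 matched RefSeq symbols of GRCh38.p14, 6 matched as synonyms and 8 did not match. DESeq2 1.42.0 and limma 3.58.1 were alternatives.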

Additional observations from a re-analysis of the deposited data

Results flagged for a closer look

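ICAM1 and IL32 are listed because the product term of the edgeR fit, vector by interferon-gamma, was past the threshold. The log2 response in the libraries labelled BTN1A1 minus that in EV was -3.64 for ICAM1 and -4.12 for IL32. Both genes were chosen with this known, so the values are a description and not a test. The call for IL32 was lost with TMM and with equal medians, ICAM1 was at the background in all 3 libraries labelled BTN1A1, and the origin of those cultures cannot be told apart from the vector.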

How the results depend on the processing

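The level of the leukocyte marker probes limits ICAM1 and IL18 in the libraries labelled BTN1A1, where their counts were 11 to 20, and no group has a replicate. No paired analysis was possible because each group holds 1 library and the labels give no replicate numbers. The 76 calls in EV became 161 with total counts and 120 with equal medians, and ranged from 48 to 90 without a treated library (48 without the 48 h EV library, and 89 with the EV libraries alone, added after seeing the data). The 7 calls in the libraries labelled BTN1A1 became 0 with TMM (17 at an unadjusted p under 0.05), equal medians (21) and a minimum of 50 (15). They ranged from 1 to 9 without a treated library: 1 without the 48 h library labelled BTN1A1 and 3 without either EV library. DESeq2 gave 5 and limma 5. The 30 calls for the difference became 15 with TMM and 18 with equal medians, and 13 to 38 without a treated library, 13 being without the 48 h EV library; total counts split them 10 and 20 in place of 2 and 28.

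Genes at least 2-fold apart in EV went from 127 to 191 at 24 h and from 122 to 211 at 48 h with total counts (64 higher and 127 lower, 78 and 133). In the libraries labelled BTN1A1 the 31 at 48 h became 14 with TMM, 18 with equal medians, 64 with a floor of 10 and 12 with a floor of 50. The 50 between 24 h and 48 h became 30, 50, 95 and 24, with 13 higher and 17 lower under TMM and 6 and 44 under equal medians in place of 45 and 5. The vector comparisons at 24 h and 48 h had 267 and 236 genes higher under equal medians, in place of 58 and 88.

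Small differences changed sign. IL18 in EV was -0.15 with total counts and -0.079 to 0.80 without a treated library, and its difference between vectors 0.066 and -1.27 to 0.10. In the libraries labelled BTN1A1, IL32 was -0.066 with TMM, -0.010 with equal medians and -0.13 to 0.34 without a treated library, IL18 0.15 in limma and -0.85 to 0.53, and ICAM1 -0.28 to 0.11. The cause was not tested. ICAM1 and IL32 kept their direction in EV and in the difference under every alternative run.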
